A study of Mus musculus with 16 samples.

Results

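The 10 genes described here encode structural proteins of the nerve cell skeleton and of its growing tips: the neurofilament subunits Nefl, Nefm, Nefh and Ina, the neuronal beta-tubulin Tubb3, the microtubule-binding proteins Map2, Map1b and Dcx, the tubulin-binding protein Stmn2 and the growth cone protein Gap43. They were taken by their gene names. All 10 were found on the array, on 17 probes, and all 10 entered the test beside the other genes of the 19647 measured. Their levels were read in P19 cells, a mouse embryonal carcinoma line that can be steered towards nerve cells in culture. Control cells, cells given a let-7a mimic (let-7a), cells with a knockdown of Sfpq by a pool of siRNAs (siSfpq), and cells given both (let-7a + siSfpq) were hybridized to Agilent arrays in 1 colour, 4 arrays per condition and 16 in all. Per the study's methods, mimics and siRNAs were transfected at 24 nM and RNA was collected after 48 h. The labels call the first condition only control, no allele or differentiation agent is named, and the methods speak of replicate transfections, 3 in number, without saying how these map to the 4 numbered arrays. The p values measure the spread between these samples, which may in part be technical.

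Neurofilaments are intermediate filaments that fill the axon and set its calibre. Nefl forms their core together with Nefm, Nefh or Ina, and Ina and Nefm appear earlier in developing neurons than Nefh. Microtubules give the axon and dendrites their tracks: Tubb3 is the beta-tubulin typical of neurons, Map2 binds microtubules of the cell body and dendrites, Map1b and Dcx bind those of young, migrating neurons, and Stmn2 binds free tubulin. Gap43 sits under the membrane of the growth cone. let-7 microRNAs are expressed as stem cells differentiate and repress mRNAs with matching sites, and Sfpq is a nuclear RNA-binding protein that resides in paraspeckles.

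The mature let-7a sequence is shown because the mimic carries this name, with the seed (bases 2 to 8 from the 5′ end) in capitals. The sequence is from RefSeq, and 1 of its genomic copies lies on the minus strand at chr13:48538239-48538260 of GRCm38.p6, in Mirlet7a-1.
mmu-let-7a-5p: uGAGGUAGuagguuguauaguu
The DNA site that pairs with this seed, CTACCTC, was present in none of the 17 member probes and in 204 of all 55681 probes (0.366%). The probe letters cover only the stretch that the array reads, and say nothing of sites elsewhere in these mRNAs.

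The 250 bases before the RefSeq start were at hand for 5 of the 10 members, and 4 of these are printed. GRCm38.p6 positions were chr8:123411303-123411552 on the plus strand for Tubb3, chr1:66175079-66175328 on the plus strand for Map2, chr19:47014431-47014680 on the plus strand for Ina, and chrX:143933220-143933469 on the minus strand for Dcx. Capitals mark 4 motifs searched on both strands, the E boxes CAGCTG and CAGATG, the GC box GGGCGG, whose match on the other strand reads CCGCCC, and the TATA motif, spelled TATAA. The capitals TTATAA hold 2 overlapping matches, 1 on each strand.
Tubb3: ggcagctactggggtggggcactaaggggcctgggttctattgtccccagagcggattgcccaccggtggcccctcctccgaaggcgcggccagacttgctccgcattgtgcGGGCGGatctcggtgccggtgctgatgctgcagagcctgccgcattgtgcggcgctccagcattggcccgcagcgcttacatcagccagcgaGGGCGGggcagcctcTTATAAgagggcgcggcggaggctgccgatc
Map2: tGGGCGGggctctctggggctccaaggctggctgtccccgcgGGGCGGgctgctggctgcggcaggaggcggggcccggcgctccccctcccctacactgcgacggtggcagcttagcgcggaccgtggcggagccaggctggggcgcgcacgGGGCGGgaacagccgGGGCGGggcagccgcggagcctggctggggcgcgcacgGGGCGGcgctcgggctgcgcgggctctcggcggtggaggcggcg
Ina: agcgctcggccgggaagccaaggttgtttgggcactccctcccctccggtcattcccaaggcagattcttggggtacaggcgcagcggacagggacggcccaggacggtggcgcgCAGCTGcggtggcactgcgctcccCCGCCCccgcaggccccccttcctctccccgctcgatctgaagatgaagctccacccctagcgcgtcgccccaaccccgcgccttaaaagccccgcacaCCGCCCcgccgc
Dcx: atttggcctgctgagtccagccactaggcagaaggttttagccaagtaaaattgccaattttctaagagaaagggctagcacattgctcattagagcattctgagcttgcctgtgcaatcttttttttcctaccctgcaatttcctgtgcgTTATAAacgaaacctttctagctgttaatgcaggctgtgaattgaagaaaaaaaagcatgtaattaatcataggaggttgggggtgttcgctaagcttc
The GC box occurred 5 times before Map2, 2 times before Tubb3 and 2 times before Ina, and at no place in the Dcx window. Of 32536 promoter windows of this length in RefSeq, 33.0% held the GC box, 22.7% TATAA, 13.1% CAGCTG and 14.4% CAGATG. The Ina window held 1 CAGCTG, and that of Map1b, which is not printed, had 1 CAGATG, 1 GC box and 1 TATAA. Tubb3 and Dcx held TATAA. The windows of Map2, Ina, Tubb3 and Map1b were 81.2%, 70.8%, 68.0% and 66.4% G or C, above the 61.2% that marks the upper quartile of all promoters (median 52.4%), whereas that of Dcx was at 41.6%, below the lower quartile of 45.2%. These matches describe letters in the windows, and no binding was measured.

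Arrays 1 and 2 of each condition differed with a median absolute deviation of 0.09 to 0.11 on the log2 scale, against 0.07 to 0.09 between spots of 1 probe on 1 array and 0.17 to 0.55 between all other pairs of a condition. Each such pair entered the analysis as the mean of its arrays, so that n = 3 per condition, named here replicates 1-2, 3 and 4. Sfpq, the knocked-down gene, was at 12.06, 12.08, 11.98 and 11.98 log2 units on control arrays 1 to 4 and at 12.03, 12.05, 12 and 11.90 with let-7a. In siSfpq arrays it was at 10.59, 10.52, 11.46 and 10.62, and in let-7a + siSfpq arrays at 11.31, 11.31, 11.49 and 11.41. siSfpq lowered Sfpq 2.19-fold (log2 change -1.13 ± 0.19 SE, n = 3, limma adjusted p = 0.0081), by 1.52, 0.52 and 1.36 log2 units in replicates 1-2, 3 and 4. With let-7a + siSfpq, Sfpq was 0.61 below control on the log2 scale, which did not pass the test (adjusted p = 0.195). The changes in replicates 1-2, 3 and 4 were -0.76, -0.49 and -0.57, with no overlap with control. They passed without replicate 3 (adjusted p = 0.00139) but not in a fit with the replicate number as a block (adjusted p = 0.0579). Replicate 3 stood farthest from the others in every condition, so counts of called genes are also given without replicate 3, which leaves 2 samples per condition. Between 33733 and 38464 of 59305 spots per array were well above background. Each condition held the same position on both slides, so condition and position cannot be told apart.

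Compared with control cells, let-7a raised 6 of the 10 genes (Nefl, Nefm, Tubb3, Map2, Dcx and Gap43), by 2.18- to 3.97-fold, and lowered none. Of all genes, 4.48% were called higher and 1.81% lower at an adjusted p under 0.05 in the limma fit. Ina, Map1b, Nefh and Stmn2 did not pass. The median change of the 10 genes was 1.26 on the log2 scale, against -0.04 over all genes. Samples of 1 replicate number deviated together, and a fit that blocks on this number also called Map1b (adjusted p = 0.0328), which made 7 where 10.9% of all genes were called higher. Without replicate 3, 8 were called higher, namely these with Ina, where 14.6% of all genes were.

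siSfpq lowered 5 of the 10 genes (Nefm, Ina, Tubb3, Map2 and Stmn2), by 1.98- to 2.71-fold, and raised none, where 5.7% of all genes were called higher and 6.76% lower. The median change was -0.92, against 0.01 over all genes. Nefl, Nefh and Dcx lay between -0.23 and 0.11 on the log2 scale and did not pass. Gap43 and Map1b passed with the replicate as a block (adjusted p = 0.00157 and 0.0215) and without replicate 3, which made 7 lower in each case, where 19.1% and 24.3% of all genes were called lower. A fit of only the control and siSfpq samples called 0 members and 0 genes, and 1 member was called with no filter on dim probes. Scaling to the 75th percentile left 4, without Stmn2. The siSfpq calls of Nefm, Ina and Stmn2 were lost under 10, 10 and 11 of 30 alternatives.

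Where let-7a and siSfpq were combined, no member was called against control, with 2 genes at an unadjusted p under 0.05, Nefh at 0.0271 (higher) and Stmn2 at 0.0385 (lower). The shares of all genes called were 1.12% higher and 0.204% lower. The median change of the members was -0.11, against -0.02 for all genes. Dcx was called higher with the replicate as a block (adjusted p = 0.00717), as were 4.92% of all genes. Without replicate 3, Dcx and Nefh were called higher, beside 9.57% of all genes, and Nefl, Ina, Tubb3 and Stmn2 lower, beside 7.25%.

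Against let-7a alone, the combination lowered 6 members (Nefl, Nefm, Tubb3, Map2, Map1b and Gap43) by 1.44- to 3.92-fold and raised none, with 0.809% of all genes called higher and 2.02% lower. With the replicate as a block, Ina and Dcx were called as well (adjusted p = 0.0178 and 0.00246), which made 8, where 6.74% of all genes were called lower. Without replicate 3 Stmn2 was called too, which made 9, where 12.2% of all genes were. Leaving out only let-7a replicate 4 left 2 members and 27 genes called, against 556 genes over all samples. Leaving out only let-7a replicate 1-2, or replicate 1-2 or 4 of the combination, left 3 members, with 40, 54 and 50 genes. The Map2 call was lost under 8 of 30 alternatives. The median change was -1.06, against 0.03 for all genes.

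Against siSfpq alone, the combination raised Nefm, Tubb3 and Map2 by 1.94- to 2.57-fold and lowered none, with 5.58% of all genes called higher and 3.7% lower. With 75th percentile scaling the excess of higher calls was gone, at 1115 genes higher and 1101 lower. The Nefm call was lost under 14 of 30 alternatives. The median change was 0.82, against -0.02. The block added Ina, Dcx and Gap43 (adjusted p = 0.0389, 0.00289 and 0.000752), which made 6, where 17.1% of all genes were called higher. Without replicate 3, all 9 members other than Nefl were called, where 24% of all genes were. The comparisons share samples, and none is independent of the others. Leaving replicates 1-2, or replicate 4, out of all conditions, which again leaves 2 samples in each, left no member called in any comparison. Hardly any gene was called there at all, 3 of 19647 with let-7a without replicates 1-2, 2 without replicate 4, and 0 in every other comparison, so these fits say nothing of the members in particular. Of the changes themselves, Nefl was at 1.63 and 1.66 under let-7a, against 1.70 over all samples. Tubb3 was at -1.28 and -1.33 under siSfpq, against -1.44. Over 30 alternatives, the siSfpq change ran from -1.4 to -0.78 for Ina and from -1.6 to -0.95 for Stmn2.

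**Figure D1:**
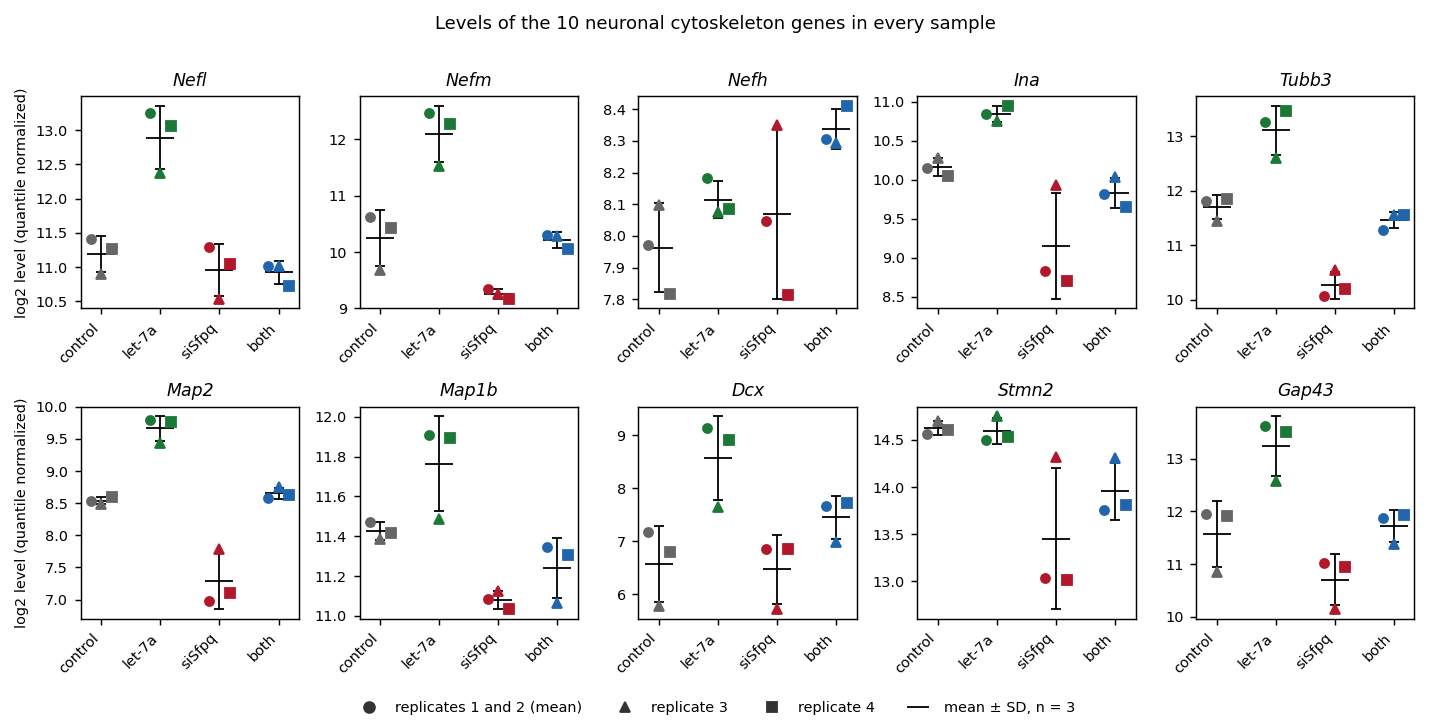
Level of each of the 10 genes on the log2 scale (vertical axis, quantile-normalized intensity) in the 3 samples of each of the 4 conditions, with 1 panel per gene. Points are samples, marked by replicate, and bars are condition means. let-7a has the highest mean for all panels other than Nefh and Stmn2.

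Among neurofilament subunits, the light chain Nefl was at 11.40, 10.90 and 11.26 log2 units in control cells (replicates 1-2, 3 and 4), 13.24, 12.37 and 13.06 in let-7a, 11.29, 10.54 and 11.05 in siSfpq and 11.02, 11.02 and 10.72 in let-7a + siSfpq. All let-7a samples were above all others, and the other 3 conditions overlapped. let-7a raised Nefl 3.26-fold (log2 change 1.70 ± 0.24 SE, adjusted p = 0.00222), and siSfpq alone left it at -0.23 ± 0.24 (adjusted p = 0.582). With both, Nefl was 3.92-fold lower than with let-7a alone (-1.97, adjusted p = 0.005) and differed from siSfpq alone by -0.04 (adjusted p = 0.947).

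Nefm, the medium chain, is read by 1 probe printed on 10 spots. It was at 10.62, 9.68 and 10.43 in control cells, 12.47, 11.53 and 12.27 in let-7a, 9.35, 9.27 and 9.17 in siSfpq and 10.31, 10.29 and 10.06 in let-7a + siSfpq. The let-7a samples were again the highest and the siSfpq samples the lowest, with no overlap with control in either case, while the combination overlapped control. Nefm rose 3.60-fold with let-7a (1.85 ± 0.26, adjusted p = 0.00212) and fell 1.98-fold with siSfpq (-0.98 ± 0.26, adjusted p = 0.0326). The let-7a change was 1.85, 1.85 and 1.84 in replicates 1-2, 3 and 4, whereas the siSfpq change was -1.28, -0.42 and -1.26.

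The heavy chain Nefh, which joins neurofilaments late in development, was at 7.97, 8.10 and 7.82 in control cells, 8.18, 8.08 and 8.08 in let-7a, 8.05, 8.35 and 7.81 in siSfpq and 8.31, 8.29 and 8.41 in let-7a + siSfpq. Its 4 condition means spanned 0.37 log2 units, the narrowest range of the 10 genes, and let-7a and siSfpq samples overlapped control. let-7a changed it by 0.15 ± 0.15 (adjusted p = 0.669) and siSfpq by 0.11 ± 0.15 (adjusted p = 0.69). The combination was the highest condition, with all 3 samples above all control samples, and its change of 0.37 from control did not pass (adjusted p = 0.34).

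Ina, or alpha-internexin, was at 10.16, 10.28 and 10.05 in control cells, 10.84, 10.75 and 10.95 in let-7a, 8.83, 9.94 and 8.70 in siSfpq and 9.81, 10.04 and 9.65 in let-7a + siSfpq. The siSfpq samples lay below all control samples, with replicate 3 at 9.94 more than 1 log2 unit above the other siSfpq samples, and the let-7a samples lay above control. siSfpq lowered Ina 2.01-fold (-1.01 ± 0.26, adjusted p = 0.0306), by 1.33, 0.34 and 1.36 log2 units in replicates 1-2, 3 and 4. The let-7a change of 0.68 ± 0.26 did not pass (adjusted p = 0.163), and without replicate 3 it was 0.79 (adjusted p = 0.000773).

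Tubb3, the neuronal beta-tubulin, was at 11.81, 11.45 and 11.86 in control cells, 13.26, 12.61 and 13.46 in let-7a, 10.06, 10.55 and 10.19 in siSfpq and 11.29, 11.55 and 11.55 in let-7a + siSfpq. let-7a samples lay above and siSfpq samples below every other sample, and the combination overlapped control. The rise with let-7a was 2.64-fold (1.40 ± 0.21, adjusted p = 0.0028), and the fall with siSfpq 2.71-fold (-1.44 ± 0.21, adjusted p = 0.00603). In the presence of siSfpq, let-7a raised Tubb3 by 1.20 (2.29-fold, adjusted p = 0.00973).

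Of the microtubule-binding proteins, Map2 was at 8.53, 8.49 and 8.60 in control cells, 9.79, 9.44 and 9.76 in let-7a, 6.98, 7.79 and 7.10 in siSfpq and 8.58, 8.75 and 8.63 in let-7a + siSfpq. The siSfpq samples were the lowest and the let-7a samples the highest without overlap, and control and the combination overlapped. Map2 rose 2.18-fold with let-7a (1.12 ± 0.19, adjusted p = 0.00632) and fell 2.38-fold with siSfpq (-1.25 ± 0.19, adjusted p = 0.00655). The combination stood 2.57-fold above siSfpq alone (1.36, adjusted p = 0.00383) and 2.01-fold below let-7a alone (-1.01, adjusted p = 0.0207).

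Map1b, an early axonal member of the same class, was at 11.47, 11.38 and 11.42 in control cells, 11.91, 11.49 and 11.90 in let-7a, 11.08, 11.12 and 11.03 in siSfpq and 11.35, 11.07 and 11.31 in let-7a + siSfpq. let-7a samples were all above and siSfpq samples all below control, by small amounts. The changes of 0.34 ± 0.12 with let-7a (adjusted p = 0.14) and -0.34 ± 0.12 with siSfpq (adjusted p = 0.0866) did not pass. Their adjusted p were 0.0328 and 0.0215 with the block and 0.000954 and 0.000875 without replicate 3, and of 30 alternatives 4 and 5 called them. Between let-7a alone and the combination Map1b fell 1.44-fold (-0.52, adjusted p = 0.0465), but this call was lost under 20 of 30 alternatives, and 1 of its 2 probes did not pass alone (adjusted p = 0.113). The study lists Map1b among mRNAs with a canonical let-7a site in the 3′UTR whose binding it reports as promoted by Sfpq. As a group, these were reported as silenced by let-7a and rescued by Sfpq knockdown. Here Map1b was not lower with let-7a, nor higher with the combination than with let-7a alone.

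Doublecortin, Dcx, was at 7.16, 5.77 and 6.79 in control cells, 9.13, 7.65 and 8.90 in let-7a, 6.86, 5.72 and 6.84 in siSfpq and 7.66, 6.98 and 7.71 in let-7a + siSfpq. Replicate 3 was the lowest sample in each condition, and let-7a samples lay above all control samples. Dcx rose 3.97-fold with let-7a (1.99 ± 0.46, adjusted p = 0.0277), by 1.97, 1.88 and 2.12 in replicates 1-2, 3 and 4. With normexp in place of the processed signal the rise was 1.28, and the call was lost with no filter on dim probes or without control replicate 3 or 4 or let-7a replicate 1-2 or 4. With siSfpq it changed by -0.10 (adjusted p = 0.916). The standard error of 0.46 became 0.145 with the replicate as a block, with which the combination was called both above control (0.88, adjusted p = 0.00717) and below let-7a (-1.11, adjusted p = 0.00246).

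Stmn2, which binds free tubulin dimers, was at 14.56, 14.71 and 14.61 in control cells, 14.50, 14.75 and 14.53 in let-7a, 13.04, 14.32 and 13.01 in siSfpq and 13.76, 14.30 and 13.81 in let-7a + siSfpq. Control and let-7a samples overlapped, and siSfpq samples were below both, with replicate 3 of siSfpq more than 1 log2 unit above the other siSfpq samples. siSfpq lowered Stmn2 2.25-fold (-1.17 ± 0.29, adjusted p = 0.0258), by 1.53, 0.39 and 1.6 log2 units in replicates 1-2, 3 and 4. The let-7a change was -0.03 ± 0.29 (adjusted p = 0.98), and without replicate 3 -0.07 ± 0.05 (adjusted p = 0.395).

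Gap43, the growth cone protein, was at 11.95, 10.85 and 11.91 in control cells, 13.61, 12.58 and 13.51 in let-7a, 11.03, 10.15 and 10.94 in siSfpq and 11.87, 11.38 and 11.93 in let-7a + siSfpq. The let-7a samples lay above all others, and replicate 3 was the lowest sample of each condition. let-7a raised Gap43 3.17-fold (1.66 ± 0.36, adjusted p = 0.0183), with 1.66, 1.73 and 1.59 in replicates 1-2, 3 and 4. That let-7a call was lost under 6 of 30 alternatives. siSfpq changed it by -0.86 ± 0.36, which did not pass (adjusted p = 0.128). It passed with the block (0.00157), without replicate 3 (3.52e-05) and with arrays 1 and 2 taken as separate samples. The combination was 2.84-fold below let-7a (-1.51, adjusted p = 0.0473), a call lost under 16 of 30 alternatives.

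**Figure D2:**
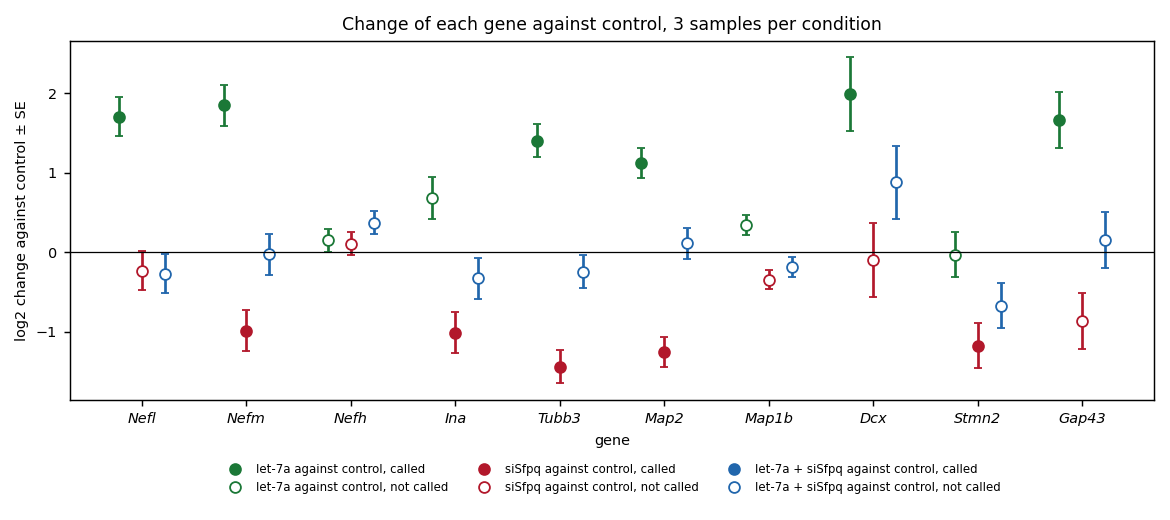
log2 change (vertical axis) of each gene (horizontal axis) against control for let-7a, siSfpq and their combination, with bars for 1 SE of the limma fit and filled points for changes called at an adjusted p under 0.05. let-7a changes reach 1.99 for Dcx, and siSfpq changes reach -1.44 for Tubb3.

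By mean level, let-7a was the highest condition for 8 of the 10 genes. The exceptions were Nefh, highest with the combination, and Stmn2, highest in control by 0.03. siSfpq was the lowest condition for 8 genes, the exceptions being Nefl, lowest with the combination by 0.04, and Nefh, lowest in control. Control and the combination were neighbours in this order for Nefm, Ina, Tubb3, Map2, Map1b, Dcx and Gap43, and differed by no more than 0.88 log2 units, which did not pass for any of them in the unblocked fit of all samples. Dcx passed with the block, and Dcx, Ina and Tubb3 without replicate 3. Condition means spanned 2.84 log2 units for Tubb3, 2.83 for Nefm, 2.53 for Gap43, 2.37 for Map2, 2.09 for Dcx, 1.97 for Nefl, 1.69 for Ina, 1.17 for Stmn2 and 0.68 for Map1b.

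The interaction asks whether the let-7a change with siSfpq differs from that without it. None of the 10 genes passed, and of all genes 0% were called higher and 0% lower, with 620 higher and 564 lower at an unadjusted p under 0.05. The lowest p among the members was that of Nefl (interaction -1.74 ± 0.34, unadjusted p = 0.000316, adjusted p = 0.632), followed by Nefm (-0.89 ± 0.36, unadjusted p = 0.0321, adjusted p = 0.823). The let-7a change of Nefl was 1.84, 1.47 and 1.80 in replicates 1-2, 3 and 4 without siSfpq, and -0.27, 0.48 and -0.33 with it. Each replicate thus gave a smaller Nefl change with siSfpq, the differences being -2.11, -0.99 and -2.12 log2 units. With the replicate as a block, the adjusted p of Nefl was 0.0581.

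Without replicate 3, 5 members passed the interaction test, 4 lower and 1 higher, where 9.42% of all genes were called lower and 11.4% higher. Nefl (-2.12, adjusted p = 0.000778), Dcx (-1.20, adjusted p = 0.00729), Nefm (-0.92, adjusted p = 0.00997) and Gap43 (-0.72, adjusted p = 0.00223) had a smaller let-7a change with siSfpq, and Stmn2 a higher one (0.83, adjusted p = 0.000853). For Tubb3, Map2, Map1b and Ina the difference lay between -0.23 and 0.36 without replicate 3, and between -0.21 and 0.24 over all samples, and did not pass. Sfpq itself was 0.52 log2 units higher with the combination than with siSfpq alone (adjusted p = 0.104, and 0.0395 with the replicate as a block). Without replicate 3 it was 0.77 higher (adjusted p = 0.00018), and its own interaction was called, at 0.83 (adjusted p = 0.00224). The part of this Sfpq difference in the interaction values of the members was not tested. Lin28a, a let-7 target measured on the same arrays, changed with let-7a by -0.77 ± 0.12 without siSfpq (adjusted p = 0.00282) and by -0.65 ± 0.12 with it (adjusted p = 0.0104).

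**Figure D3:**
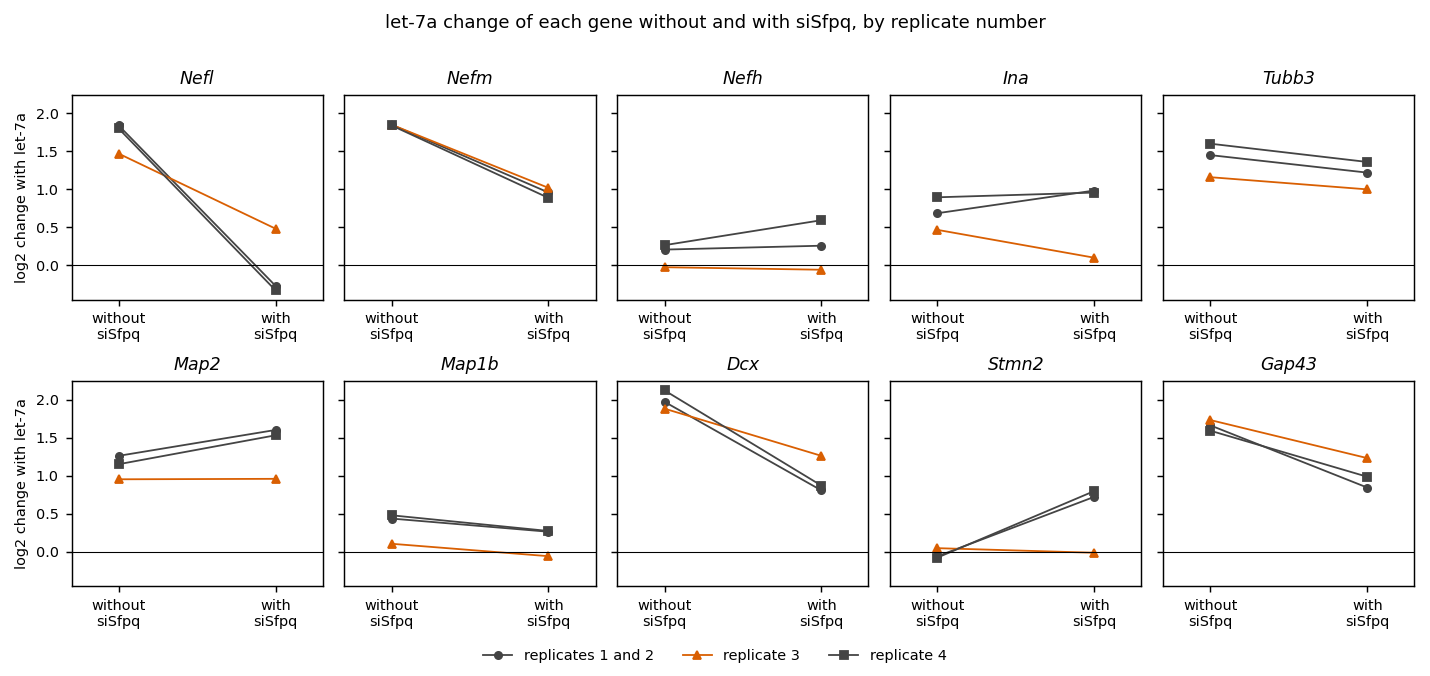
let-7a change of each gene (vertical axis, log2 change) without siSfpq (let-7a against control) and with siSfpq (let-7a + siSfpq against siSfpq), with 1 panel per gene. Each line joins the values of 1 replicate. Nefl shows the largest fall of the mean change, from 1.70 to -0.04.

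The arrays held more than 1 probe for Nefh, Ina, Map2, Map1b and Dcx, at these places of mm9, the build of the array annotation. For Map2, the probes at chr1:66488783-66488842 and chr1:66488543-66488602 rose by 1.15 and 1.10 with let-7a and fell by 1.26 and 1.24 with siSfpq, all called. A Map2 probe farther upstream, at chr1:66463380-66463439, was above background on 1 of 4 control arrays, 3 of 4 let-7a arrays and no siSfpq array, and was not tested. The Ina probes, at chr19:47099350-47099409 and chr19:47098781-47098840, changed by 0.66 and 0.70 with let-7a and by -1.16 and -0.86 with siSfpq. Only the last passed (adjusted p = 0.0303), so the call for Ina with siSfpq rests on the gene mean and 1 of 2 probes.

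For Map1b, the probe at chr13:100192506-100192565 changed by -0.44 with siSfpq (adjusted p = 0.0414) and that at chr13:100194409-100194468 by -0.25 (adjusted p = 0.295). The Dcx probe at chrX:140290854-140290913 rose by 1.89 with let-7a (adjusted p = 0.0208). That at chrX:140296337-140296396 changed by 2.09 (adjusted p = 0.0679), and it was well above background on 2 of 4 control and 3 of 4 siSfpq arrays, so that its share in the gene mean is close to the background there. These Dcx probes differed in sign with siSfpq, at -0.44 and 0.24, and neither passed. A further Dcx probe at chrX:140295893-140295952 was above background on 2, 3, 1 and 2 of the 4 arrays of control, let-7a, siSfpq and the combination and was not tested. The Nefh probes, at chr11:4838758-4838817 and chr11:4839396-4839455, gave 0.17 and 0.13 with let-7a, neither called.

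Nefl, Nefm, Tubb3, Stmn2 and Gap43 had 1 probe each, at chr14:68705638-68705698, chr14:68738193-68738252, chr8:125945850-125945909, chr3:8561545-8561604 and chr16:42248714-42248773. Nefl and Nefm are therefore close neighbours on chromosome 14, annotated on opposite strands. Exon and UTR positions were not used here.

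Across the 12 samples, the correlation of each gene with the mean standardized profile of the other 9 was 0.98 for Tubb3, 0.97 for Nefm, 0.96 for Map2, 0.91 for Map1b, 0.89 for Gap43, 0.88 for Ina, 0.80 for Nefl, 0.74 for Dcx, 0.60 for Stmn2 and 0.04 for Nefh. The closest pair was Tubb3 and Map2 (r = 0.97), and Nefl was closest to Nefm (0.92). Stmn2 was closest to Ina (0.90). Nefh stayed between -0.18 and 0.22 with every other member. These values describe 4 conditions of 3 samples that share slides and replicate numbers, and carry no test.

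Of 17603 other genes above background on all 16 arrays, those most like the mean profile of the 10 were Dscam (r = 0.996), Samd14 (0.992), Tmsb4x (0.989), Mapk8ip1 (0.989), Clmp (0.988), Asic1 (0.988), Parp6 (0.988), Map6 (0.988), Pcdhb16 (0.987) and Dll3 (0.987). Dscam, a neuronal cell adhesion molecule, changed by 1.24 ± 0.20 with let-7a and by -0.86 ± 0.20 with siSfpq. Map6 encodes a microtubule-stabilising protein, and Dll3 a Notch ligand. The genes nearest to a single member differed with the member. Elavl4, which encodes a neuronal RNA-binding protein, was among the 3 nearest to Nefm (r = 0.988, with Gm2694 and Pcdhac2), and Crabp1, which encodes a retinoic acid-binding protein, among those nearest to Map2 (0.991, with Btbd17 and Syt11).

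Tubb3 was nearest to Clmp (0.996), Tmsb4x and Pik3r3, and Ina to Tram1l1 (0.989), Agap2 and Pld3. Stmn2 was nearest to Ddah1 (0.988), Ndufa5 and Mycn, of which Mycn, a proto-oncogene transcription factor, changed by 0.03 ± 0.46 with let-7a and -1.65 ± 0.46 with siSfpq. Dcx was nearest to Irx4 (0.984), Nrp2 and Btg1, and Nrp2, a receptor for guidance cues, changed by 1.90 ± 0.41 with let-7a and by 0.00 ± 0.41 with siSfpq. Gap43 was nearest to Myh3 (0.988) and Chst8, and Map1b to Eml5 (0.968), an array probe with no gene name (0.967) and Meg3. Nefl was nearest to Gng2 (0.965), an unnamed probe (0.964) and B3gnt5, and Nefh to Glt28d2 (0.924), Slc25a10 and Gstm1.

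Other genes of the cytoskeleton were read from hand-written lists. Of 21 other microtubule-associated proteins, let-7a raised 4 and lowered none (median 0.08, against -0.04 over all genes), where 4.48% of all genes were called higher. Mapt, which encodes tau, rose 3.52-fold (1.81 ± 0.17, adjusted p = 0.000318) and Map6 2.30-fold (adjusted p = 0.0133). siSfpq lowered 6 and raised 2 of the 21 (median -0.11, against 0.01), beside 6.76% and 5.7% of all genes. Map6 fell 2.13-fold and Mapt 1.94-fold (adjusted p = 0.0183 and 0.00936), and Map7, known from epithelial microtubules, rose 2.60-fold (1.38, adjusted p = 0.00932) and Camsap3, which binds microtubule minus ends, 1.48-fold (adjusted p = 0.0192). A fit blocked on the replicate called 8 of the 21 lower and 5 higher with siSfpq, where 19.1% of all genes were called lower and 17.8% higher.

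Of 8 other stathmins and doublecortin-family genes, let-7a raised 3 and lowered none (median 0.60), beside 4.48% of all genes called higher. Stmn4, a neural stathmin, rose 6.59-fold (2.72 ± 0.22, adjusted p = 0.000166) and Dclk3, a doublecortin-like kinase, 5.58-fold (adjusted p = 0.00237). siSfpq lowered Stmn4 2.54-fold (adjusted p = 0.00742) and Dclk1 1.69-fold (adjusted p = 0.0423) and raised none (median -0.41), beside 6.76% of all genes called lower. Against let-7a alone, the combination lowered 3 of the family (median -0.64, against 0.03 over all genes), where 2.02% of all genes were called lower. With the replicate as a block, 5 of the 8 were called higher with let-7a and 4 lower with siSfpq, beside 10.9% and 19.1% of all genes.

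Of 13 growth cone proteins tested, let-7a raised 6 and lowered none (median 0.57), where 4.48% of all genes were called higher. The membrane protein Gpm6a rose 2.66-fold (1.41 ± 0.24, adjusted p = 0.00593), and Dpysl3, a collapsin response mediator, 2.43-fold (adjusted p = 0.00199). siSfpq lowered 8 and raised 1 (median -0.68), beside 6.76% and 5.7% of all genes, with Gprin1, which interacts with G proteins in neurites, 3.23-fold lower (adjusted p = 0.00707) and Gpm6a 2.56-fold lower (adjusted p = 0.00956). Dpysl5 was the gene that rose, 1.31-fold (adjusted p = 0.043). The combination raised 6 over siSfpq alone and lowered 6 against let-7a alone, beside 5.58% and 2.02% of all genes. Blocking on the replicate gave 9 higher with let-7a, beside 10.9%, and 11 lower and 1 higher with siSfpq, beside 19.1% and 17.8%.

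In the 4 remaining lists, let-7a changed 2 genes past the threshold and siSfpq changed 6, where let-7a called 4.48% of all genes higher and 1.81% lower, and siSfpq 5.7% and 6.76%. Of 15 other tubulins none was called with let-7a (median -0.10), and with siSfpq only Tuba1a, the main alpha-tubulin of young neurons, was called, 1.47-fold lower (adjusted p = 0.0277). Of 13 other intermediate filaments only Synm was called with let-7a, 2.19-fold higher (adjusted p = 0.0224), and none with siSfpq. Of 11 spectrins, ankyrins and adducins, only Add2 was called with let-7a (1.39 on the log2 scale, adjusted p = 0.0114), and it was above background on 1 of 4 control arrays. Of 17 tubulin-modifying and severing enzymes, none was called with let-7a. With siSfpq the tubulin tyrosine ligase Ttl rose 2.28-fold, while the tubulin deacetylase Hdac6 and the tubulin acetyltransferase Atat1 fell 1.81-fold and 1.76-fold, among 4 lower (adjusted p = 0.0326, 0.0114 and 0.0278). Once replicates were blocked, let-7a raised 6 intermediate filaments, 3 genes of the spectrin list and 2 tubulin-modifying enzymes. It lowered 1 tubulin and 1 enzyme. siSfpq then lowered 7 tubulins, 5 enzymes, 4 intermediate filaments and 3 genes of the spectrin list. It raised 6 enzymes, 2 intermediate filaments and 1 gene of the spectrin list. In the same fit, 10.9% of all genes were called higher with let-7a and 1946 of 19647 lower. siSfpq called 19.1% of all genes lower and 17.8% higher there. Several of the list counts are near those shares, among them 2 of 17 enzymes higher with let-7a.

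Without replicate 3, let-7a raised 8 microtubule-associated proteins, 5 genes of the stathmin and doublecortin family, 11 growth cone proteins, 2 tubulins, 6 intermediate filaments, 3 genes of the spectrin list and 3 tubulin-modifying enzymes, where 14.6% of all genes were called higher. siSfpq lowered 10, 5, 12, 8, 4, 4 and 5 in the same order of lists, where 24.3% of all genes were called lower. In the opposite direction, let-7a lowered 4 microtubule-associated proteins, 2 tubulins and 3 of the enzymes, beside 13.5% of all genes. siSfpq raised 6 microtubule-associated proteins, 6 enzymes, 4 intermediate filaments, 1 growth cone protein and 1 gene of the spectrin list, beside 22.9%.

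**Figure D4:**
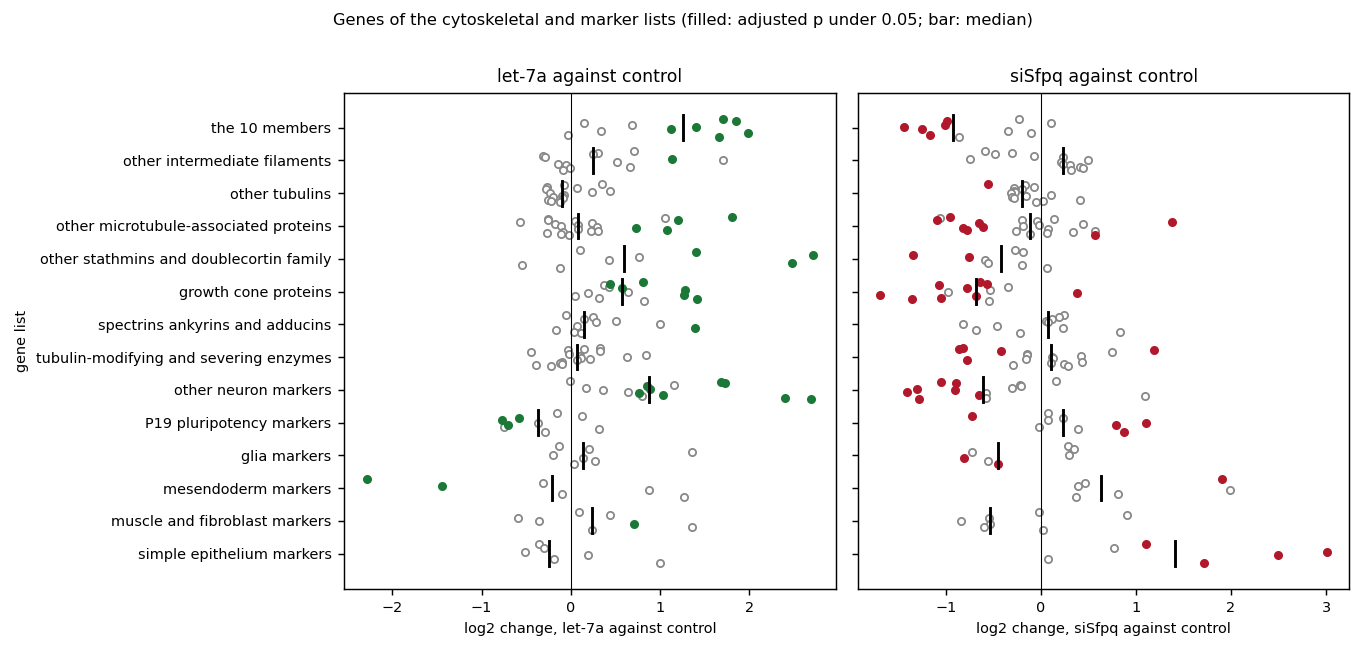
log2 change under let-7a and under siSfpq (horizontal axis) of every tested gene of each list (rows), with the 10 members in the first row. Points are genes, filled where called, and vertical marks are list medians, 1.26 and -0.92 for the members.

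Markers of cell types moved beside the 10 genes, and in bulk RNA fewer cells of a type and less RNA per cell cannot be told apart. All 14 other neuron markers were above background on all arrays, and let-7a raised 8 and lowered none (median 0.87), while siSfpq lowered 7 and raised none (median -0.61), where 4.48% of all genes were called higher with let-7a and 6.76% lower with siSfpq. The block gave 10 higher and 9 lower, beside 10.9% and 19.1% of all genes, and leaving out replicate 3 gave 12 and 10, beside 14.6% and 24.3%. In both of these fits 1 was also called higher with siSfpq. Chgb and Chga, granins of secretory vesicles, rose 6.45-fold and 5.26-fold with let-7a (adjusted p = 0.000864 and 0.000826), and the adhesion molecule Ncam1 and the synaptic calcium sensor Syt1 fell 2.66-fold and 2.46-fold with siSfpq (adjusted p = 0.00578 and 0.0101). The summed intensity of the 14 ranged from 16170 to 25730 units in control, 29230 to 51490 with let-7a, 13890 to 18090 with siSfpq and 17980 to 29160 with both. The let-7a samples lay above all others, and the ranges of the other conditions overlapped.

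P19 cells are marked by pluripotency genes, and 9 of 10 such markers were above background on all arrays, the exception being Zfp42, which was at background on all control and siSfpq arrays. The counts of these and of the mesendoderm, epithelial, glia and muscle markers stand beside 4.48% of all genes called higher and 1.81% lower with let-7a, and 5.7% higher and 6.76% lower with siSfpq. The summed intensity of the pluripotency markers was 63870 to 74370 in control, 41960 to 58280 with let-7a, 75790 to 84560 with siSfpq and 58440 to 64090 with both. let-7a lowered 3 of the 9 tested, Lin28a (1.71-fold) and Utf1 (1.63-fold, adjusted p = 0.0427) among them, and raised none. siSfpq raised 3 (Fgf4 2.16-fold, adjusted p = 0.013, and Esrrb 1.83-fold, adjusted p = 0.0493, with the largest changes) and lowered Sox2 1.65-fold (adjusted p = 0.0293). Of 6 mesendoderm markers tested, 2 were called with let-7a, both lower, and 1 with siSfpq, higher. T, or brachyury, was 4.88-fold lower with let-7a (adjusted p = 0.00403) and 3.76-fold higher with siSfpq (adjusted p = 0.0115), and Gsc 2.72-fold lower with let-7a (adjusted p = 0.00136). Gata6 and Foxa2, which were not called, were at 1.27 and 0.88 with let-7a on the log2 scale.

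The summed intensity of all 8 mesendoderm markers was 1621 to 2158 in control, 750.5 to 934.2 with let-7a, 3664 to 7096 with siSfpq and 1120 to 2293 with both, with Sox17 above background on no array. Of 6 epithelial markers tested, siSfpq raised 4 (Cldn6 8.04-fold and Cldn7 5.61-fold, adjusted p = 0.00502 and 0.00805, and Cdh1 and Ocln), with sums over the 7 listed of 5444 to 7043 in control, 4542 to 6158 with let-7a, 9606 to 10030 with siSfpq and 7479 to 7616 with both. Krt7 was above background on siSfpq arrays alone, and Ocln, which entered the test through arrays with siSfpq, was above background on no control or let-7a array. Of 7 glia markers, siSfpq lowered Mbp 1.75-fold and Slc1a3 1.37-fold (adjusted p = 0.016 and 0.0242) and let-7a changed none, with sums over the 9 listed of 7842 to 9918, 8609 to 10720, 5839 to 6635 and 7345 to 8796 in the same order and S100b at background on all control and let-7a arrays. Of 7 muscle and fibroblast markers only Col1a2 was called with let-7a or siSfpq against control, 1.63-fold higher with let-7a (adjusted p = 0.0401), with sums over the 8 listed of 3053 to 4934, 3925 to 5748, 2982 to 3974 and 3973 to 4474, and Myog was above background on no array. Without replicate 3, let-7a lowered 6 pluripotency, 2 mesendoderm and 2 epithelial markers, where 13.5% of all genes were called lower, and raised 2 mesendoderm, 1 glia and 3 muscle and fibroblast markers, where 14.6% were called higher, so that 1 of 7 glia markers is at that share. siSfpq then raised 4 pluripotency, 5 mesendoderm, 5 epithelial, 1 glia and 1 muscle and fibroblast markers, where 22.9% of all genes were called higher, and lowered 1 pluripotency, 2 glia and 3 muscle and fibroblast markers, where 24.3% were called lower. The part of these shifts in the values of the 10 genes was not tested.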

How the data were processed

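Messenger RNA of P19 cells was measured on 16 Agilent arrays of 1 colour. The authors deposited scanner intensities from Feature Extraction 10.7.3.1, background-subtracted and detrended, and a matrix of log2 values. That matrix followed log2 of the median spot intensity (r of at least 0.9995) and was used for an alternative fit. The members and lists were chosen with earlier results of these data known. In R 4.3.3 with limma 3.58.1, the processed intensities were put on the log2 scale and quantile normalized across all 16 arrays. Outlier spots were left out, and probes were kept that stood well above background, with at least 0.5 of their spots per array, on the 4 arrays of some condition. Of 55681 probes, 28354 were named through RefSeq accessions, 11133 by the array, and 16194 named by a region were left out. Probes of a gene were averaged, which gave 19647 genes. Arrays 1 and 2 were averaged, and 1 model of 4 condition means (12 samples, moderated with a trend) gave 6 contrasts, two-sided, with Benjamini-Hochberg adjustment and a threshold of 0.05. An exact permutation test of 3 samples against 3 cannot give a p below 0.1. Samples of the same replicate number deviated together from their condition means (r 0.293 to 0.713 over 18 pairs, against -0.628 to 0.182 for other pairs), so blocked values are given where they change a call. The fit was also run on simulated data whose noise was independent between samples, so that run does not cover these shared deviations. Named genes are the members, Sfpq and Lin28a, list genes with the 2 largest called rises and falls with let-7a and with siSfpq, and the genes with the highest correlations, of which 1 is not reported here. Lin28a in the interaction was chosen after its values were seen. The number of arrays limits the precision.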

Additional observations from a re-analysis of the deposited data

How the results depend on the processing

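The replicate block changed the calls given in the report and no others of the members: it called 7 members with let-7a, 7 with siSfpq, 1 with both against control, 8 with both against let-7a, 6 with both against siSfpq and 0 in the interaction. Over all genes it called 4095, 7246, 1474, 2400, 6366 and 4 in the same order of comparisons. Counting arrays 1 and 2 as separate samples gave 3665, 6808, 1409, 2593, 6108 and 155 genes, with 5 members for both against siSfpq and 1 in the interaction (Nefl). With no filter on dim probes, siSfpq gave 1339 genes and 1 member, both against control 168 genes, both against let-7a 268 genes and 3 members, both against siSfpq 862 genes and 1 member, and the interaction 4 genes. Within slide 2 (replicates 3 and 4, which is also the fit without replicates 1-2), let-7a gave 3 genes, every other comparison 0, and no member was called. Slide 1 holds 1 sample per condition and allows no test. A fit of only the groups compared gave 0 genes and 0 members for siSfpq and 198 genes for both against siSfpq, and Sfpq at -1.13, which did not pass there, nor did its -0.94 within slide 2. An absolute log2 change of at least 1 left 555, 902, 148, 321 and 643 genes.

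Leaving out 1 replicate or sample gave 0 to 8 members with let-7a, 0 to 7 with siSfpq, 0 to 6 with both against control, 0 to 9 with both against let-7a, 0 to 9 with both against siSfpq and 0 to 5 in the interaction. Over all genes the ranges were 2 to 5512, 0 to 9270, 0 to 3306, 0 to 4876, 0 to 8904 and 0 to 4098, and the Sfpq change with siSfpq lay between -1.44 and -0.94. The lowest counts came without replicates 1-2 or 4 and the highest without replicate 3. With siSfpq, 2 members were called without control replicate 1-2 or 4 or siSfpq replicate 1-2 or 4, in fits that called 310, 353, 269 and 270 genes, and 3 without control replicate 3, which called 1413. Without siSfpq replicate 3 alone, the interaction called 2 members and 1364 of 19647 genes (775 higher, 589 lower), against 0 over all samples. Without replicate 3, 13 of 15 member probes and 75 of 147 list genes were called with let-7a, against 11 probes and 99 list genes for siSfpq, in fits that called 5512 and 9270 of 19647 genes. Of 1790 values of single members under alternatives, 1587 kept their direction or were called in neither fit, 145 lost a call and 58 gained one. No called value changed sign, and 34 uncalled values did, with a main change of at most 0.16 on the log2 scale. Scaling to the 75th percentile, normexp and the authors' table moved the median of all genes by under 0.1. The 75th percentile turned the balance of calls with siSfpq to 1447 genes higher and 1287 lower, from 1120 and 1328. The Dcx and Add2 changes rest in part on probes near background in control.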
